A study of Mus musculus with 30 samples.

Results

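The complement components and receptors described here were C1qa, C1qb, C1qc, C3, C4b, Cfb, Cfi, C3ar1 and C5ar1. They were chosen by name: every probe whose gene name on the mouse array equals 1 of these symbols was taken, which gave 9 genes and 10 probes out of 55657 probes. All 9 genes passed the filter on low signal and were among the 23268 gene names tested. RNA came from the mouse abdominal aorta, and each of 10 groups held 3 arrays. Wild type mice (WT) were compared with uMT mice, a B cell-deficient line in which a disrupted immunoglobulin mu heavy chain gene stops B cell development. All mice were labelled C57BL/6, and the labels give no age. In each genotype 1 group was unoperated (pre). A pair of groups had 0.5 M CaCl2 laid around the aorta, a chemical injury used to induce abdominal aortic aneurysm, and a pair had saline laid around it (sham). Operated groups were taken 7 or 42 days later. The tissue label reads as aneurysm for all 30 samples, also for unoperated and sham mice. Nothing in the labels says that samples of a group came from separate mice, so the p-values measure the spread between these samples only, which may be technical.

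Complement is a cascade of plasma proteins that tags and clears pathogens, immune complexes and dying cells. C1q, assembled from A, B and C chains that are each the product of a gene of its own, binds antibody or exposed surfaces and starts the classical pathway, which cuts C4 and then C3. Factor B, encoded by Cfb, forms the C3-cutting enzyme of the alternative pathway, and factor I, encoded by Cfi, is the protease that inactivates C3b and C4b. The C3a and C5a fragments act on the receptors C3ar1 and C5ar1 of myeloid cells. Liver supplies most circulating C3, C4, factor B and factor I, whereas macrophages are the main source of C1q in tissues.

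All values rest on single 60-base probes, of which 4 are shown, each annotated to 1 RefSeq gene. For C3 the dimmer probe is shown, whereas C3 values below come from the brighter probe unless the dimmer is named. Positions are those of the array annotation on the mm9 build. The 4 printed probes match the minus strand in exonic sequence, and each has at least 1 reading frame without a stop codon. C1qa and C1qb lie beside C1qc on chromosome 4, in the order C1qb, C1qc, C1qa. The Cfb probe spans 357 genomic bases, so it crosses an exon junction.
C1qa, chr4:136452409-136452468: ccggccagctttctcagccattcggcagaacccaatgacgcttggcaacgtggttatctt
C1qb, chr4:136436578-136436637: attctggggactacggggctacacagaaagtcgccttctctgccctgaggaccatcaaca
Cfb, chr17:34993502-34993858: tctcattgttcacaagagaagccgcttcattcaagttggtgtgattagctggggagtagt
C3, the dimmer of its 2 probes, chr17:57343678-57343737: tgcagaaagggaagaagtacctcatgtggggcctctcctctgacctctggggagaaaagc
The other probes lie at chr4:136445766-136445825 for C1qc, chr17:57343416-57343475 for the brighter C3 probe, chr3:129578165-129578224 for Cfi, on the plus strand, chr6:122798222-122798281 for C3ar1 and chr7:16832243-16832302 for C5ar1. The probe named C4b, at chr17:34865328-34865387, is annotated to transcripts of both C4b and its near-identical neighbour C4a. No probe was named C4a, so every value called C4b below may hold signal of either gene.

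The 250 bases before the transcript start are shown for 4 members, taken from RefSeq on GRCm38.p6. C1qb and C1qc were chosen because they lie side by side. C3 and C3ar1 were chosen because C3 had its highest mean at WT CaCl2 day 42 and C3ar1 at WT CaCl2 day 7. Their time courses were not compared by a test. The table of starts held 5 of the 9 members. Capitals mark matches to 9 short motifs searched on both strands.
C1qb, chr4:136886201-136886450, minus strand: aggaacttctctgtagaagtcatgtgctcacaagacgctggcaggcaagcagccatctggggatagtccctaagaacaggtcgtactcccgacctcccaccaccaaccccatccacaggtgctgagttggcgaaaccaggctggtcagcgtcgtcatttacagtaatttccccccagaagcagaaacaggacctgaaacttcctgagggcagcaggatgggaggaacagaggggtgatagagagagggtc
C1qc, chr4:136892915-136893164, minus strand: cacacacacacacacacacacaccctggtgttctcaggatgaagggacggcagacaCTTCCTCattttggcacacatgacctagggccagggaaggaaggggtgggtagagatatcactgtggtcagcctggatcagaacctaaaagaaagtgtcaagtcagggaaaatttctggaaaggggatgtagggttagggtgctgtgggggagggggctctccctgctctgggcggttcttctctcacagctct
C3, chr17:57228137-57228386, minus strand: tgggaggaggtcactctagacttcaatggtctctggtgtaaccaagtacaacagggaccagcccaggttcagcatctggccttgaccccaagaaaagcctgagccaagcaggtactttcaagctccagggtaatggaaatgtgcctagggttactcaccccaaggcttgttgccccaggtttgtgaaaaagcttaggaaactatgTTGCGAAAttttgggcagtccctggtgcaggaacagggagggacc
C3ar1, chr6:122856158-122856407, minus strand: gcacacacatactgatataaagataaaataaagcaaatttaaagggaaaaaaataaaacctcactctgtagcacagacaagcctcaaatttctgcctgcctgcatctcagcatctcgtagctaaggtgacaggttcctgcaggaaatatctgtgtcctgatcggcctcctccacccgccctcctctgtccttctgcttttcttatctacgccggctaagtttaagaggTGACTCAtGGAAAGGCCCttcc
C1qc held GAGGAAG, the core bound by the myeloid factor PU.1, which 10.6% of the 32851 listed promoters hold. C3 held the C/EBP motif TTGCGNAA, present in 0.670% of promoters. C3ar1 held the AP-1 motif TGANTCA, present in 6.75%, and beside it an NF-kB motif, present in 4.65%. The motifs AGAGGAA (8.55% of promoters), TTCNNNGAA (7.02%) and TTGCNNCAA (1.74%), an interferon response motif (2.98%) and a combined ETS and IRF motif (2.30%) had no match in the 5 members with an entry, and neither C1qb nor the fifth entry, C5ar1, matched any motif. A match describes these letters and is not a shown binding site.

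Levels are log2 values of each probe's processed signal relative to the 75th percentile of its array, so 0 is the signal at that percentile, and levels of different probes are not compared. Between 36.6% and 61.8% of probes per array were well above background, the scanner software's call that a spot exceeds its local background. WT sham day 42 replicate 2 stood apart: it had the lowest share, a 75th percentile signal of 36.1 against up to 428 elsewhere, and a correlation of 0.727 and 0.718 with its group mates, which correlated at 0.981 with each other. It was alone on its slide and scan day and is called the dim array below. Differences come from limma fitted over all 30 arrays, with p-values adjusted by the Benjamini-Hochberg method over 23268 genes and a threshold of 0.05, and are given as log2 difference ± SE. Many are repeated without the dim array where that array enters the groups or changes the call. A limma difference given once, with no other setting named, is from all 30 arrays and may depend on the dim array. An exact permutation test of 3 against 3 arrays cannot give a p under 0.1, so none was run. C1qa, C1qb, C1qc, C3, C4b and Cfb were well above background on 30 of 30 arrays, C5ar1 on 28, C3ar1 on 27 and Cfi on 16. The 8 contractile smooth muscle markers were well above background on every array of every group. The B cell marker genes Ms4a1 and Pou2af1 were not well above background on any uMT array. Pou2af1 was not well above background on any unoperated WT array either. Of the 6 B cell markers tested, 1 or 2 were well above background on all 3 arrays in each uMT group.

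**Figure D1:**
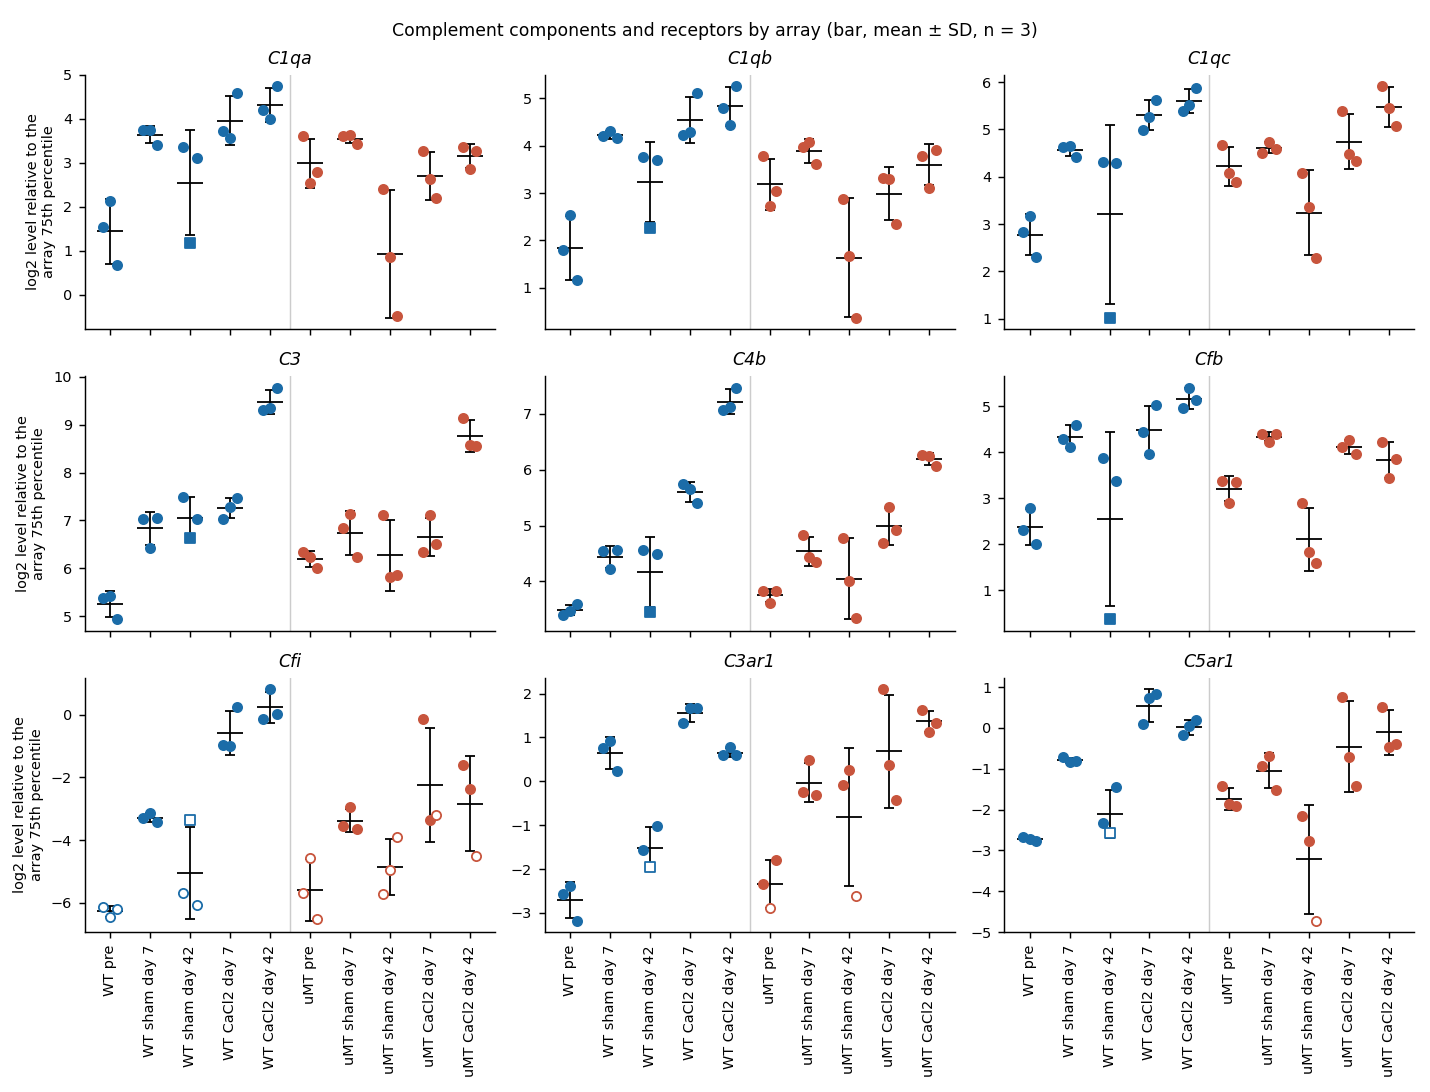
Level of each gene on every array, in log2 units relative to the array's 75th percentile, for the 10 groups (blue WT, red uMT). Bars are the mean ± SD of 3 arrays, open symbols were not well above background, and the square is the dim array, WT sham day 42 replicate 2. C3 and C4b are highest in the CaCl2 day 42 groups of both genotypes, and Cfi reaches its highest levels in WT CaCl2 aortas.

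At day 42 after CaCl2, complement genes were higher than after sham surgery in both genotypes, whereas at day 7 few differed from sham. In WT aortas at day 42 all 9 genes were called higher, beside 6.79% of all genes called higher, and 7 were called without the dim array, beside 7.14%. In uMT aortas at day 42, 7 of 9 were called higher, beside 4.62% of all genes, and 8 without the dim array, beside 8.87%. The median difference of the 9 genes was 2.39 in WT and 2.18 in uMT, against 0.05 and -0.04 over all genes. At day 7, C4b and Cfi were called higher in WT, beside 2.98% of all genes and, without the dim array, 9.31%. None of the 9 was called in uMT at day 7, where limma called 0.894% of all genes in either direction, and 9.82% without the dim array, again with none of the 9. Since RNA came from whole tissue, more cells of a type and more RNA per cell cannot be told apart.

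**Figure D2:**
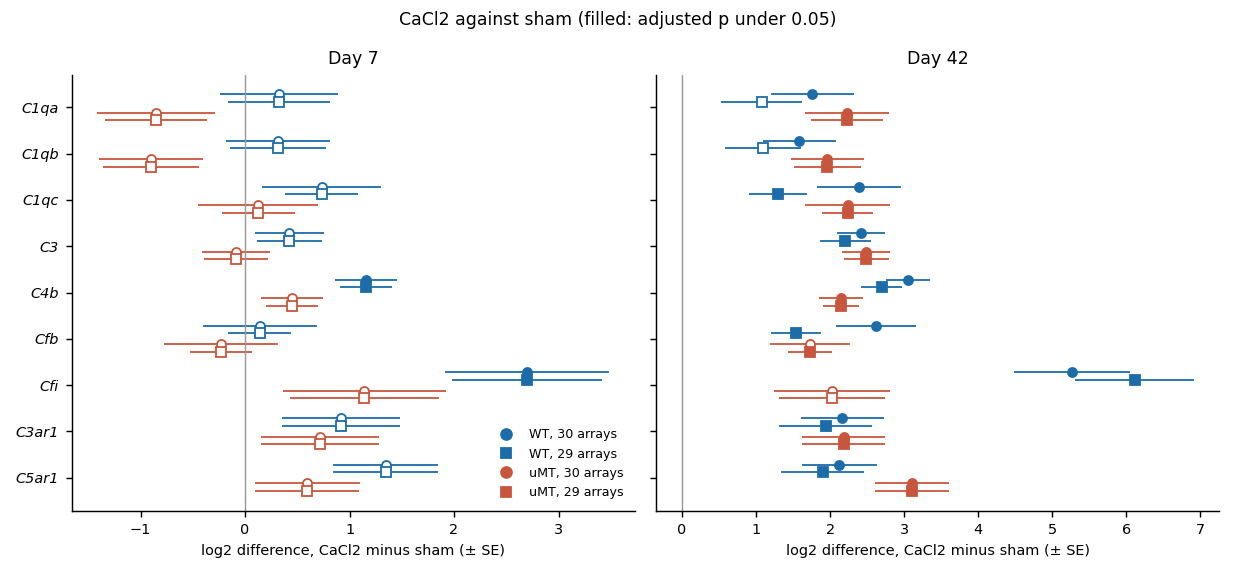
Log2 difference between CaCl2 and sham (± SE) at day 7 and day 42 for each gene, in WT (blue) and uMT (red), from all 30 arrays (circles) and from 29 arrays without the dim array (squares). Filled symbols have an adjusted p under 0.05. Against sham at day 42 the Cfi points are fitted values against groups that were not well above background. Every day 42 point lies above 0.

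The C1q chains had their highest mean in WT aortas at CaCl2 day 42. C1qa and C1qb had their lowest mean in uMT aortas at sham day 42, and C1qc in unoperated WT aortas. C1qa read 1.53, 2.13 and 0.66 in unoperated WT aortas and 3.74, 3.75 and 3.41 at WT sham day 7. At WT sham day 42 it read 3.35, 1.17 and 3.11, where 1.17 is the dim array. In WT CaCl2 aortas it read 3.72, 3.56 and 4.59 at day 7 and 4.19, 3.99 and 4.74 at day 42. The WT day 42 groups did not overlap. C1qa was higher by 1.76 ± 0.56 (adjusted p = 0.0463), but without the dim array the difference was 1.08 ± 0.55 (adjusted p = 0.200).

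In uMT aortas C1qa read 3.60, 2.55 and 2.79 unoperated and 3.59, 3.62 and 3.43 at sham day 7. It read 2.40, 0.86 and -0.49 at sham day 42, the widest spread of any group. The CaCl2 arrays read 3.27, 2.63 and 2.19 at day 7 and 3.35, 2.85 and 3.25 at day 42. All CaCl2 day 42 arrays lay above all sham day 42 arrays, a rise of 2.23 ± 0.56 (adjusted p = 0.0178), yet they overlapped the unoperated arrays. At day 7 the CaCl2 arrays lay below the sham arrays, by -0.85 ± 0.56 (adjusted p = 0.504), which did not pass.

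C1qb followed C1qa. It was 1.84 ± 0.68 (SD, n = 3) in unoperated WT aortas, 3.24 ± 0.85 at WT sham day 42 and 4.83 ± 0.41 at WT CaCl2 day 42. The day 42 difference was 1.59 ± 0.50 (adjusted p = 0.0429) over all arrays and 1.097 ± 0.51 (adjusted p = 0.159) without the dim array. In uMT aortas at day 42, C1qb read 2.88, 1.66 and 0.37 after sham and 3.78, 3.11 and 3.91 after CaCl2, a rise of 1.96 ± 0.50 (adjusted p = 0.0181). The groups did not overlap.

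C1qc kept its call in both fits. It read 4.30, 1.03 and 4.29 at WT sham day 42, with 1.03 from the dim array, and 5.39, 5.51 and 5.88 at WT CaCl2 day 42. These groups were apart, and the rise was 2.39 ± 0.57 (adjusted p = 0.00945), or 1.30 ± 0.39 (adjusted p = 0.0340) without the dim array. In uMT aortas C1qc read 4.08, 3.36 and 2.29 at sham day 42 and 5.92, 5.44 and 5.07 at CaCl2 day 42, again without overlap, a rise of 2.24 ± 0.57 (adjusted p = 0.0196). Across the 10 group means the Pearson correlation was 0.987 between C1qa and C1qb, 0.847 between C1qa and C1qc and 0.824 between C1qb and C1qc, as a description over groups that share arrays and slides.

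C3, the protein on which all complement pathways meet, rose late. It read 5.38, 5.43 and 4.94 in unoperated WT aortas, 7.02, 6.44 and 7.04 at sham day 7 and 7.50, 6.63 and 7.04 at sham day 42. After CaCl2 it read 7.04, 7.28 and 7.46 at day 7 and 9.31, 9.34 and 9.77 at day 42. The day 7 CaCl2 arrays overlapped the sham arrays, and the day 42 arrays stood above every other WT array. C3 was higher at WT CaCl2 day 42 than at sham by 2.42 ± 0.33 (adjusted p = 1.21e-04), or 2.21 ± 0.34 (adjusted p = 4.10e-04) without the dim array. At day 7 the difference was 0.42 ± 0.33 (adjusted p = 0.521). In uMT aortas C3 read 7.12, 5.82 and 5.87 at sham day 42 and 9.15, 8.58 and 8.56 at CaCl2 day 42. The rise of 2.49 ± 0.33 (adjusted p = 9.04e-05) was 5.61-fold, and no arrays overlapped. The dimmer C3 probe, fitted among all probes, gave 2.38 ± 0.35 in WT and 2.40 ± 0.35 in uMT for the same comparisons.

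C4b, cut by the classical and lectin pathways, had the lowest adjusted p of the 9 genes against sham at WT day 42. It read 3.40, 3.47 and 3.59 in unoperated WT aortas, 4.54, 4.22 and 4.57 at sham day 7 and 4.55, 3.44 and 4.49 at sham day 42, with 3.44 from the dim array. After CaCl2 it read 5.75, 5.66 and 5.39 at day 7 and 7.06, 7.12 and 7.47 at day 42. At both times the CaCl2 and sham arrays were apart. The rise was 1.16 ± 0.30 (adjusted p = 0.0206) at day 7 and 3.05 ± 0.30 (adjusted p = 3.14e-06) at day 42, or 8.31-fold. Without the dim array the day 42 rise was 2.69 ± 0.27 (adjusted p = 3.59e-06). In uMT aortas C4b read 4.68, 5.34 and 4.93 at CaCl2 day 7, which overlapped 4.84, 4.44 and 4.34 at sham day 7. At day 42 it read 4.78, 4.01 and 3.34 after sham and 6.27, 6.24 and 6.07 after CaCl2, a rise of 2.15 ± 0.30 (adjusted p = 1.54e-04) between groups that did not overlap.

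Cfb read 2.32, 2.80 and 2.01 in unoperated WT aortas and 4.29, 4.11 and 4.60 at sham day 7. It was 3.87, 0.38 and 3.38 at sham day 42, where 0.38 is the dim array, and 4.95, 5.40 and 5.13 at CaCl2 day 42. The WT day 42 rise was 2.62 ± 0.54 (adjusted p = 0.00355), and 1.54 ± 0.34 (adjusted p = 0.00615) without the dim array, which moves the fold from 6.14 to 2.90. In uMT aortas Cfb read 2.89, 1.83 and 1.60 at sham day 42 and 4.21, 3.44 and 3.84 at CaCl2 day 42. These did not overlap, but the difference of 1.72 ± 0.54 (adjusted p = 0.0597) did not pass over all arrays. It passed without the dim array, where its SE was 0.30 (adjusted p = 6.39e-04), and under several other settings. At day 7 Cfb read 4.43, 3.96 and 5.02 at WT CaCl2 and 4.10, 4.26 and 3.96 at uMT CaCl2, and both groups overlapped their sham group.

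Cfi was near the detection limit in several groups: it was not well above background on any array of the unoperated or sham day 42 groups in either genotype. It was measured on all sham day 7 arrays, at -3.30, -3.14 and -3.41 in WT and -3.55, -2.96 and -3.64 in uMT. In WT CaCl2 aortas all 6 arrays were well above background, at -0.98, -1.01 and 0.24 at day 7 and -0.13, 0.80 and 0.01 at day 42. In uMT CaCl2 aortas 4 of 6 were: -0.15 and -3.37 at day 7, where the third array read -3.21, and -1.62 and -2.37 at day 42, where the third read -4.52. The WT day 7 rise over sham was 2.70 ± 0.78 (adjusted p = 0.0389), or 6.49-fold. Against a group not above background only a bound is given, the higher group's mean over a mean of the group not above background. For that mean, every array of the group not above background took the higher of its lowest well-above-background level and the probe's own level. By that bound Cfi was at least 10.05-fold higher at WT CaCl2 day 42 than at sham (adjusted p = 2.80e-04), and at least 17.9-fold without the dim array (adjusted p = 6.70e-05). In uMT aortas the bound at day 42 was 1.20-fold, and the difference was not called (adjusted p = 0.136, and 0.0591 without the dim array). At uMT day 7 the difference of 1.14 ± 0.78 between CaCl2 and sham was not called (adjusted p = 0.525).

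The anaphylatoxin receptors C3ar1 and C5ar1 were already high at day 7. C3ar1 read -2.57, -2.39 and -3.18 in unoperated WT aortas, 0.76, 0.93 and 0.23 at sham day 7 and -1.55, -1.96 and -1.01 at sham day 42, with -1.96 from the dim array and not well above background. After CaCl2 it read 1.33, 1.68 and 1.67 at day 7 and 0.60, 0.78 and 0.59 at day 42. So the WT sham arrays were high at day 7 and low at day 42, and the CaCl2 arrays were high at both. The difference from sham was 0.92 ± 0.56 at day 7 (adjusted p = 0.388) and 2.17 ± 0.56 at day 42 (adjusted p = 0.0152), or 1.94 ± 0.63 (adjusted p = 0.0465) without the dim array.

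C5ar1 read -2.67, -2.71 and -2.77 in unoperated WT aortas, -0.72, -0.84 and -0.82 at sham day 7 and -2.33, -2.56 and -1.44 at sham day 42. It read 0.09, 0.73 and 0.82 at CaCl2 day 7 and -0.18, 0.04 and 0.19 at CaCl2 day 42. Each CaCl2 group stood apart from its sham group. The rise was 2.13 ± 0.50 at day 42 (adjusted p = 0.00867), and 1.90 ± 0.56 (adjusted p = 0.0307) without the dim array. At day 7 the difference of 1.34 ± 0.50 did not pass (adjusted p = 0.115).

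In uMT aortas the receptors varied more. C3ar1 read -0.09, 0.26 and -2.62 at sham day 42, the last not well above background, and 1.62, 1.13 and 1.34 at CaCl2 day 42, a rise of 2.18 ± 0.56 (adjusted p = 0.0203). C5ar1 read -2.16, -2.77 and -4.72 at sham day 42, again with the last not well above background, and 0.52, -0.46 and -0.38 at CaCl2 day 42. Its rise of 3.11 ± 0.50 (adjusted p = 6.00e-04), or 8.61-fold, rests on a sham group with 2 of 3 arrays above background. Without sham replicate 3 it was 2.35 (adjusted p = 0.00674), or 5.11-fold, and with normexp and quantile normalization 1.68 (adjusted p = 0.00118). At uMT CaCl2 day 7 the arrays were spread, at 2.10, 0.38 and -0.42 for C3ar1 and 0.76, -0.71 and -1.41 for C5ar1, and both overlapped sham day 7.

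The uMT day 42 calls rested on few arrays. With 1 array left out, the number of genes called ranged from 3 to 8: it was 4 without sham day 42 replicate 2, 3 without sham day 42 replicate 3 and 3 without CaCl2 day 42 replicate 1. C1qa, C1qb and C1qc lost the call in each of these 3 cases, while C3, C4b and C5ar1 kept it in each. None of the 9 was called when sham day 42 replicates 2 and 3 were both left out, a step added after the data were seen. It leaves 1 sham array, which is assumed to vary like the other groups, so little can be called at that size. With slide as a random block, 4 of the 9 genes were called at WT day 42 and none at uMT day 42, and without the dim array 7 and 9 were. The estimated correlation within slides was 0.782 over all arrays and -0.0687 without the dim array, which was alone on its slide. From the 2 compared groups alone, 0 and 2 were called. Shares of all genes called are not given for these settings, so these counts have no background beside them. Each uMT CaCl2 array lay on 1 slide and each uMT sham array on another, so slide and treatment cannot be told apart there. In WT the CaCl2 day 42 arrays shared a slide with sham day 42 replicate 3, and all 3 lay above it for all 9 genes. How many of all genes did so was not counted, and the comparison rests on 1 sham array. Within that slide the difference, with no test, was 1.20 for C1qa, 1.14 for C1qb, 1.31 for C1qc, 2.44 for C3, 2.73 for C4b, 1.78 for Cfb, 1.67 for C3ar1 and 1.45 for C5ar1. In WT at day 42, C1qa and C1qb lost the call without any 1 of the CaCl2 arrays, and C3ar1 without CaCl2 replicate 2, which left 6 called. At WT day 7 all CaCl2 and sham arrays lay on separate slides, so slide and treatment cannot be told apart, and leaving out 1 of the 6 arrays of that comparison left 0 or 1 gene called, with C4b alone called without sham day 7 replicate 3 and none called in the other 5 cases.

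The C1q level was lower on the dimmer arrays of uMT sham day 42, and lower on the dim array than on its WT group mates. Across both sham day 42 groups together this order did not hold for C1qa. In uMT sham day 42 the share of probes well above background was 53.3%, 47.8% and 45.8% on replicates 1, 2 and 3, and C1qa read 2.40, 0.86 and -0.49 on them. The dim WT array, at 36.6%, read 1.17, against 3.35 and 3.11 on its group mates at 50.7% and 53.7%. The uMT CaCl2 day 42 arrays had shares of 43.2%, 48.3% and 52.4%, and read 3.35, 2.85 and 3.25 for C1qa and 5.92, 5.44 and 5.07 for C1qc. The part of array brightness in the uMT sham values was not tested.

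**Figure D3:**
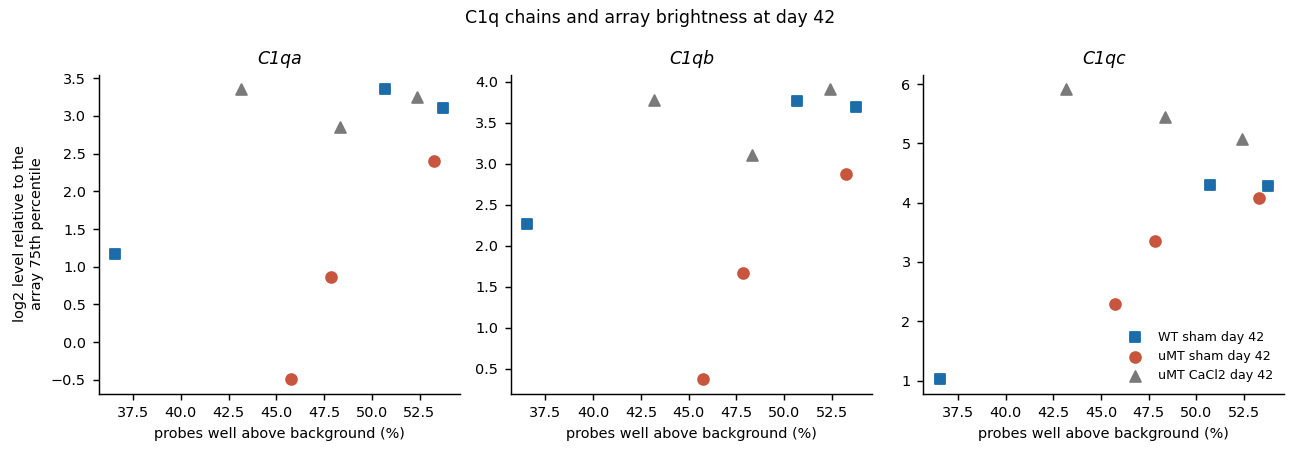
Level of C1qa, C1qb and C1qc (log2, relative to the array's 75th percentile) against the percentage of probes well above background, for each of the 3 arrays of WT sham day 42 (blue squares), uMT sham day 42 (red circles) and uMT CaCl2 day 42 (grey triangles). The dim WT sham array and the dimmer uMT sham arrays read lower than their group mates, and the dimmest CaCl2 array does not.

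Between day 7 and day 42 after CaCl2, a comparison made within 1 slide in each genotype, C3 and C4b rose and the other 7 genes were not called. In WT 2 of 9 genes were called higher, beside 0.456% of all genes, and the same 2 without the dim array, beside 0.731%. In uMT the same 2 genes were called, beside 0.546% of all genes, or 3.87% without the dim array. C3 rose by 2.21 ± 0.33 in WT (adjusted p = 5.92e-04) and by 2.11 ± 0.33 in uMT (adjusted p = 0.00171), or 4.64-fold and 4.30-fold. C4b rose by 1.62 ± 0.30 in WT (adjusted p = 0.00646) and by 1.21 ± 0.30 in uMT (adjusted p = 0.0495). No day 7 array overlapped a day 42 array for either gene in either genotype. C3 kept its call whichever array was left out, whereas C4b lost it in uMT without any 1 of the 6 CaCl2 arrays, and in WT without replicate 3 of either time. The dimmer C3 probe gave 2.35 ± 0.35 in WT and 2.10 ± 0.35 in uMT. C1qa, C1qb and C1qc differed by 0.29 to 0.35 in WT and 0.46 to 0.74 in uMT. C3ar1 was lower at day 42 in WT on all 3 arrays, by -0.90 ± 0.56, which was not called (adjusted p = 1.0), and was 0.68 ± 0.56 in uMT (adjusted p = 0.677).

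**Figure D4:**
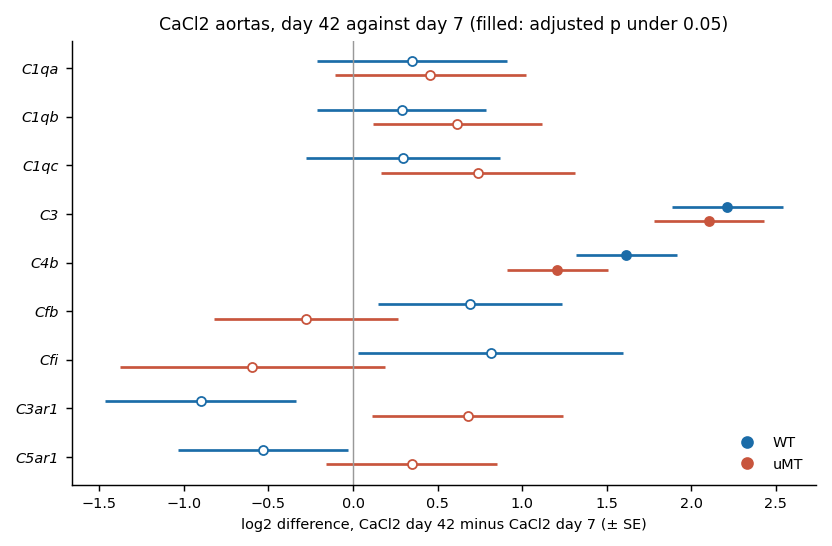
Log2 difference between CaCl2 day 42 and CaCl2 day 7 (± SE, all 30 arrays) for each gene in WT (blue) and uMT (red). Filled symbols have an adjusted p under 0.05: C3 and C4b in both genotypes.

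Against unoperated aortas, WT CaCl2 aortas had all 9 genes higher at day 7 and at day 42. The calls stood beside 11.6% and 9.67% of all genes called higher, or 18.2% and 17.2% without the dim array with the same 9 genes, and 9 were called whichever array was left out. C3 was higher by 2.01 ± 0.33 at day 7 (adjusted p = 8.48e-05) and 4.22 ± 0.33 at day 42 (adjusted p = 2.23e-08), and C3ar1 by 4.27 ± 0.56 and 3.37 ± 0.56 (adjusted p = 8.06e-06 and 1.62e-04). Cfi was at least 14-fold higher at day 7 and at least 24.6-fold at day 42. In WT and in uMT the CaCl2 arrays lay on another slide than the unoperated ones, so slide and treatment cannot be told apart here. In uMT aortas C4b, Cfi and C3ar1 were called higher at CaCl2 day 7, beside 8.11% of all genes, and Cfb too without the dim array, beside 14.5%. At uMT CaCl2 day 42, C3, C4b, Cfi, C3ar1 and C5ar1 were called, beside 13.9%, and C1qc too without the dim array, beside 20.0%. With CaCl2 day 42 replicate 1 left out, 3 were called. C1qa and C1qb were not among the uMT calls: they differed from unoperated uMT aortas by -0.29 ± 0.56 and -0.20 ± 0.50 at day 7 and by 0.17 ± 0.56 and 0.42 ± 0.50 at day 42.

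Sham surgery alone was followed by higher complement levels in WT aortas at day 7, measured within 1 slide. C1qa, C1qb, C3, Cfi, C3ar1 and C5ar1 were called higher than in unoperated WT aortas, 6 of 9 beside 2.29% of all genes, and all 9 without the dim array, beside 3.78%. C1qa rose by 2.19 ± 0.56 (adjusted p = 0.0358), C3 by 1.58 ± 0.33 (adjusted p = 0.00694) and C3ar1 by 3.35 ± 0.56 (adjusted p = 0.00124). For all 9 genes the sham day 7 arrays lay above the unoperated arrays. How many of all genes were apart in this way was not counted, so this describes the 9 genes only. The count was 1 without unoperated replicate 3, 4 without unoperated replicate 2 and 3 without any 1 of the other 4 arrays. At WT sham day 42 only C3 was called, by 1.80 ± 0.33 (adjusted p = 0.0173), beside 0.168% of all genes, or 0.198% without the dim array. The dimmer C3 probe was not called there, at 1.63 ± 0.35 (adjusted p = 0.0541). That call was lost without unoperated replicate 1 or 3. In uMT sham day 7 aortas C3ar1 was called, by 2.32 ± 0.56 (adjusted p = 0.0299), beside 1.49% of all genes, and without the dim array C4b, Cfb and Cfi as well, beside 5.44%. Leaving out any 1 of 5 of the 6 arrays of that comparison, all but unoperated replicate 3, left 0 called.

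At uMT sham day 42, by contrast, C1qa, C1qb and C5ar1 were lower than in unoperated uMT aortas, by -2.06 ± 0.56 (adjusted p = 0.0166), -1.54 ± 0.50 (adjusted p = 0.0361) and -1.48 ± 0.50 (adjusted p = 0.0445). These 3 stood beside 10.1% of all genes called lower, and 5 were lower without the dim array, beside 24.6%. Without the dim array C3ar1 was also called higher, by 1.53 ± 0.56 (adjusted p = 0.0343), beside 15.7% of all genes called higher. None was called when sham day 42 replicate 2 or unoperated replicate 1 was left out, and none of these 3 without sham day 42 replicate 3. Within the slide of the uMT sham arrays, C1qa, C1qb, Cfb and C5ar1 were lower at day 42 than at day 7, by -2.62 ± 0.56, -2.25 ± 0.50, -2.23 ± 0.54 and -2.17 ± 0.50 (adjusted p = 0.00701, 0.00793, 0.0134 and 0.0104). These 4 stood beside 6.21% of all genes called lower, or 5 beside 21.7% without the dim array. That comparison was added after the data were seen, and it gave 0 calls without sham day 42 replicate 3. The change from unoperated to sham day 42 was lower in uMT than in WT for C1qa by -3.16 ± 0.80 (adjusted p = 0.0235), for C1qb by -2.95 ± 0.70 (adjusted p = 0.0187) and for C3 by -1.73 ± 0.46 (adjusted p = 0.0308). These 3 genes stood beside 2.84% of all genes called lower in this test of the difference, also added after the data were seen, and 6 beside 18.4% without the dim array. None was called without WT unoperated replicate 3, uMT unoperated replicate 1 or uMT sham day 42 replicate 2.

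The response to CaCl2 was not shown to differ between the genotypes for any of the 9 genes. The difference of responses, uMT minus WT, gave 0 of 9 calls at day 7, beside 0% of all genes in either direction, and 0 of 9 at day 42, beside 0.107%, or 0.447% without the dim array. At day 42 it was 0.07 ± 0.46 for C3, -0.91 ± 0.42 for C4b (adjusted p = 0.774) and 0.98 ± 0.71 for C5ar1 (adjusted p = 0.774). For Cfi, whose sham day 42 levels were not well above background, the adjusted p was 0.732, and 0.112 without the dim array. With SEs of 0.42 to 1.11, differences of several-fold were not detectable for some of these genes.

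Direct comparison of uMT with WT gave no call among the 9 genes over all 30 arrays in any of 5 conditions. The background was 0.0903% of all genes in unoperated aortas, 0.0172% at sham day 7, 4.13% at sham day 42, 0.219% at CaCl2 day 7 and 1.31% at CaCl2 day 42. With CaCl2 day 42 replicate 1 of uMT left out, Cfi was called there. Without the dim array 3 genes were lower in uMT at CaCl2 day 42, where 2488 of 23268 genes were called lower and 15.4% in either direction: C4b by -1.02 ± 0.25 (adjusted p = 0.00962), Cfb by -1.33 ± 0.30 (adjusted p = 0.00654) and Cfi by -3.06 ± 0.72 (adjusted p = 0.00822). For each of these 3 the uMT and WT arrays were apart, with 2 of 3 uMT arrays well above background for Cfi. They were also apart for C1qa, C1qb and C3, lower in uMT, and for C3ar1, higher in uMT, none of which was called. How many of all genes were apart was not counted. With all arrays their adjusted p was 0.0829, 0.222 and 0.0514. In the same fit C1qc was higher in unoperated uMT aortas by 1.45 ± 0.35 (adjusted p = 0.0205), beside 5.52% of all genes called higher and 6.87% in either direction. At sham day 42 C1qa, C1qb, C1qc, C3 and Cfb were lower in uMT, beside 18.7% of all genes called lower and 33.3% in either direction, from the arrays whose brightness is given above. No gene of the 9 was called at CaCl2 day 7, beside 1.94%, or at sham day 7, beside 0.0215%. In each of the 5 conditions the uMT arrays lay on other slides than the WT arrays, so slide and genotype cannot be told apart in any of them.

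Over the 10 groups, C3 and C4b had WT CaCl2 day 42 highest, uMT CaCl2 day 42 next and unoperated WT lowest. Of the 9 pairs of groups next to each other in rank, 3 were apart for C3 and 4 for C4b, including both pairs above WT CaCl2 day 7. C3ar1 and C5ar1 instead had WT CaCl2 day 7 highest, at 1.56 ± 0.20 and 0.55 ± 0.40 (SD, n = 3), and C1qa, C1qb, C1qc, Cfb and Cfi had WT CaCl2 day 42 highest. For C1qc and C3ar1 all 9 neighbouring pairs overlapped. For C1qa, C1qb, Cfb, Cfi and C5ar1 8 of 9 did, so for those genes the order shows the ends of the range and not single steps.

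Other genes of the cascade were followed in 5 lists. At day 7 the WT calls against sham were Ptx3, Hc and C5ar2, higher, and Cd59a, lower, and in uMT Fcna and Cfhr2 were lower. Of all genes, 2.98% were called higher and 3.61% lower in WT at day 7, and 0.391% lower in uMT. Of 17 recognition and protease genes of the classical and lectin pathways, 12 were tested. At day 42, 4 were called higher in WT, beside 6.79% of all genes, and 0 in uMT, beside 4.62%, with medians of 0.85 and 0.67. Without the dim array 4 and 5 were called, beside 7.14% and 8.87%. The proteases C1ra and C1s1 form the C1 complex with C1q, and C2 is the partner of C4. C1ra rose in WT by 0.90 (adjusted p = 0.00667), C1s2 by 2.23 (adjusted p = 0.00589) and C2 by 2.13 (adjusted p = 0.00769), or 0.87, 1.15 and 1.08 without the dim array. C1s1 rose by 2.33 (adjusted p = 0.0240) over all arrays and was 0.90 (adjusted p = 0.0563) without the dim array. C1s1 and C1s2, like C1ra and C1rb, are near copies whose signals may be mixed. In uMT C2 was 1.05 (adjusted p = 0.250) over all arrays and passed without the dim array (adjusted p = 0.00302).

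Neither alternative pathway gene beside Cfb was called in WT. Cfp, which encodes properdin, rose in uMT by 1.11 (adjusted p = 0.0282) and was 0.83 in WT (adjusted p = 0.0798). Cfd, which encodes the protease adipsin that cuts factor B and is made by fat cells, was -0.61 in WT (adjusted p = 0.686) and -2.45 in uMT (adjusted p = 0.139). Of 7 genes of C5 and the terminal pathway, 4 were tested. Hc, which encodes C5, rose in uMT at day 42 by 2.996 (adjusted p = 2.26e-05) and was 0.94 in WT (adjusted p = 0.0682), while at day 7 it rose in WT by 1.1 (adjusted p = 0.0457). C8a, C8b and C9, which build the membrane pore, did not pass the filter.

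Among 19 regulators, 13 were tested, and at WT day 42 Vtn and Susd4 were higher and Cd59a was lower. These stood beside 6.79% of all genes called higher and 3.59% called lower. Cd59a, which guards cells from the terminal pore, fell by 0.92 (adjusted p = 0.0278), and by 1.05 without the dim array. Vtn, which encodes vitronectin, rose by 2.86 (adjusted p = 0.00655), or 1.91 without the dim array, and Susd4 by 1.56 (adjusted p = 0.0188), a call lost without that array. None of the 13 was called in uMT over all arrays, beside 6.33% of all genes called in either direction. Without the dim array Clu was called lower at -0.95 (adjusted p = 0.0451). Serping1, which encodes the C1 inhibitor, was 1.48 in WT and 0.38 in uMT, and Cd55 was 1.61 and 0.99, neither called. All 8 other receptor genes were tested and 3 were called higher in both genotypes at day 42, beside 6.79% of all genes in WT and 4.62% in uMT. C5ar2, the second C5a receptor, rose by 1.13 in WT (adjusted p = 0.0133) and 1.35 in uMT (adjusted p = 0.00582), Itgax by 4.27 and 2.95 and Itgb2 by 1.88 and 2.33. The WT call of Itgb2 was lost without the dim array (adjusted p = 0.0583). Itgax and Itgb2 encode the chains of complement receptor 4. Cr2, found on B cells and follicular dendritic cells, was 0.15 in WT and -0.74 in uMT, neither called.

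**Figure D5:**
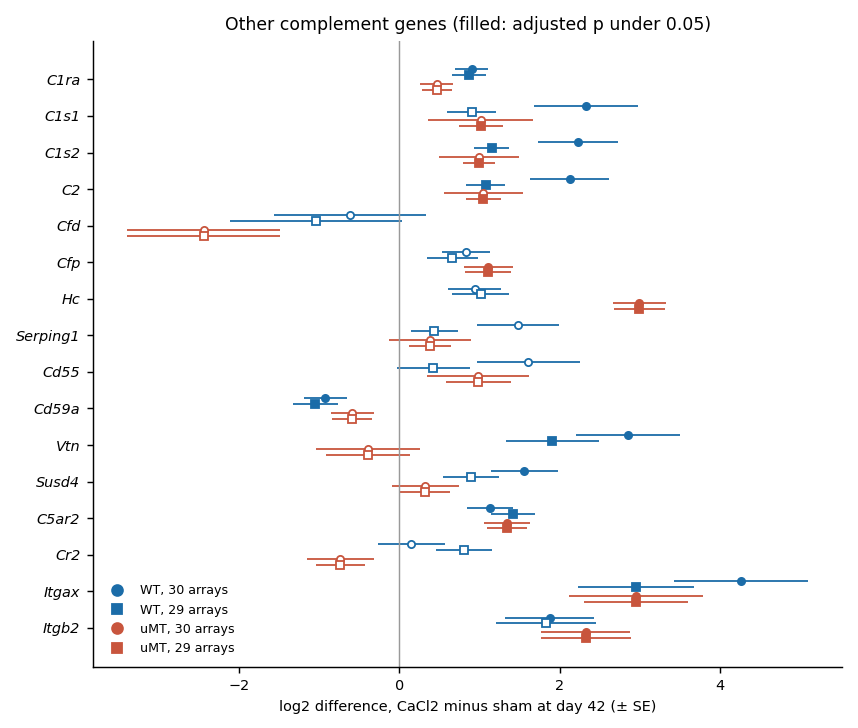
Log2 difference between CaCl2 and sham at day 42 (± SE) for 16 other complement genes in WT (blue) and uMT (red), from all 30 arrays (circles) and from 29 arrays without the dim array (squares), filled where the adjusted p is under 0.05. C5ar2 and Itgax are filled in all 4 settings, and Cd59a lies below 0.

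Marker genes of several cell types moved in the same comparisons. Of 14 macrophage markers, 10 were called higher at WT day 42 and 7 at uMT day 42, or 6 and 11 without the dim array, and their summed level, as log2 of the summed signals, was 7.92 to 8.21 at WT sham day 42 and 8.57 to 9.18 at WT CaCl2 day 42. In uMT it was 8.69 to 9.45 at sham day 42 and 9.20 to 9.76 at CaCl2 day 42. Itgam was the highest single gene on all 6 of those uMT arrays, on all 3 WT sham day 42 arrays and on 2 of 3 WT CaCl2 day 42 arrays. Without it, a step chosen after its values were seen, the sum was 4.81 to 7.16 and 8.22 to 8.95 in WT and 5.59 to 7.18 and 8.14 to 8.67 in uMT. Cd163 was the macrophage marker not well above background on any array at uMT day 42. Neutrophil markers were called higher for 3 of 10 genes in WT and 4 of 10 in uMT, fibroblast markers for 3 and 6 of 9, and T cell markers for 3 and 3 of 6 tested. Smooth muscle markers were lower for 6 of 8 genes in WT and 2 of 8 in uMT, beside 3.59% and 1.71% of all genes called lower. Of all genes, 6.79% were called higher at day 42 in WT and 4.62% in uMT, or 7.14% and 8.87% without the dim array. The hepatocyte markers Alb, Apoa1, Ttr, Fgb and Apoh were not well above background on all arrays of any group, and the other 5 hepatocyte markers summed to 4.44 to 5.77 at WT sham day 42 and 5.94 to 6.55 at WT CaCl2 day 42, and to 4.96 to 5.24 and 5.88 to 6.18 in uMT. Of the B cell markers, 3 of 6 tested were called higher in WT and 0 in uMT. The part of these cell types in the complement differences was not tested, and these counts stand without a test of the lists.

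The genes whose 10 group means followed a member most closely, among 16008 genes with a RefSeq symbol, were sought by Pearson correlation, as a description with no test. Of the 27 genes listed, 14 were also listed without the dim array. C1qc was followed by Csf1r, the receptor for the macrophage growth factor, at 0.987, and by Akr1c13 at 0.983 and Ly86 at 0.977. C3ar1 was followed by Mpeg1, Adam8 and Cd300lb, each at 0.993, and C5ar1 by Alox5ap at 0.992, Rgs14 at 0.988 and Timp1 at 0.987. C1qa and C1qb shared Lrmda as the closest gene, at 0.977 and 0.965. The next were H2-DMa at 0.971 and Npc2 at 0.964 for C1qa, and Cfp at 0.964 and Rgs18 at 0.960 for C1qb. C3 had Cnr1 at 0.960, Tbc1d10c at 0.958 and C1ra at 0.948, and C4b had Gimap3 at 0.973, Kmo at 0.958 and Cd5 at 0.957. Cfb was followed by Fgd2 at 0.976, Shc2 at 0.969 and C1s2 at 0.964, and Cfi by Spns3 at 0.984, Flt3 at 0.976 and Kng2 at 0.968. Among the members themselves C3 and C4b correlated at 0.945 and C3 and Cfb at 0.652.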

How the data were processed

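RNA of 30 mouse aorta samples was hybridised in 1 colour (Cy3) to Agilent 60-base arrays. The deposited scanner files hold processed signal as intensity, background-subtracted by Feature Extraction 10.7.1.1 per the file headers, whereas the submitters' processing notes name 9.5.1.1. The authors' deposited matrix, taken to log2, served as an alternative. Unflagged spots of a probe were averaged, and each array was scaled to its 75th percentile before log2. Probes well above background on all 3 arrays of at least 1 group were kept, 33228 of 55657, and the brightest probe stood for each of 23268 genes. limma 3.58.1 in R 4.3.3 (lmFit, eBayes) fitted 1 mean per group with 20 residual degrees of freedom, and p-values were adjusted by Benjamini-Hochberg within a comparison at 0.05. The precision rests on 3 arrays per group. Names came from RefSeq on GRCm38.p6 for 16017 genes. The same code was tested on simulated data with known changes. Same-numbered arrays did not deviate together (median correlation -0.0409 over 135 pairs), so numbers were not taken as pairs.

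The 9 members, the lists of other complement genes and the cell type markers were chosen with earlier results of these data known. The text names all members, other complement genes called at day 42 (at most 5 per list by size of change) with a fixed set always named where tested, of which 1 is not reported here, and the 3 genes most like each member. Genes named at day 7 were chosen after their values were seen. Alternatives covered normalization, background correction, filter, probe choice, the deposited matrix, slide, replicate block, array weights, compared groups alone and arrays left out.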

Additional observations from a re-analysis of the deposited data

Results flagged for a closer look

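The change from unoperated aortas to sham day 42 differed between the genotypes for 3 members by a test of the difference itself, added after the data were seen. The value, uMT minus WT, was -3.16 for C1qa, -2.95 for C1qb and -1.73 for C3 on the log2 scale, with limma adjusted p of 0.0235, 0.0187 and 0.0308. C5ar1 stood out because every WT sham day 42 array lay above every unoperated WT array while every uMT sham day 42 array lay below every unoperated uMT array. The lowest array of each of these sham groups, the dim array in WT and replicate 3 in uMT, was not well above background for C5ar1. Its difference was -2.09, which did not pass the test (adjusted p = 0.0847). The uMT sham day 42 arrays are those whose brightness is given in the report, and the part of brightness was not tested.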

How the results depend on the processing

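Each alternative gave the number of members called. Shares of all genes are not given beside these counts, so the counts describe the members only. With single arrays left out, it ranged from 0 to 2 at WT day 7 against sham, 6 to 9 at WT day 42, 3 to 8 at uMT day 42 and 1 to 2 for day 42 against day 7 in either genotype. At WT day 7 it was 1 without the filter, 5 in a fit of its own 2 groups, 0 with the slide as a random effect and 5 with array weights. At WT day 42 it was 0 in a fit of its own groups and 4 with the slide as a random effect. At uMT day 42 it was 2 in a fit of its own groups and 0 with the slide as a random effect, without the 6 arrays under 50% of probes well above background, or without sham day 42 replicates 2 and 3. Leaving out those 6 arrays compares 1 uMT sham with 1 uMT CaCl2 array at day 42, each assumed to vary like the other groups, so its counts say little about stability. Array weights gave 1 call at uMT day 7 and 1 for the genotype difference at each day. For uMT day 42 against day 7 it was 1 without the filter, 1 with the replicate block, 1 without the arrays under 50%, 0 in a fit of its own groups and 4 with array weights. The replicate number as a block changed the member count in that comparison, where C4b was lost, and in no other of the CaCl2 comparisons above by over 1.5 times. The uMT minus WT difference of C1qc at sham day 42, 0.04 over all arrays, was -1.05 with array weights and -1.10 with the slide as a random effect and no dim array, and ran from -1.05 (without the dim array) to 0.59 (without WT sham day 42 replicate 1) with single arrays left out. The causes of these changes were not tested. Of 4644 pairs of a member's difference and a setting, 140 turned the sign, and 0 of those differences were called over all arrays. With 3 arrays per group and Cfi above background on 16 arrays, small differences in Cfi were not detectable.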
